A study of Mus musculus with 12 samples.

Results

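Expression of 9 receptor genes for the cytokines of blood formation was followed through single-cell transcriptomes of c-Kit-enriched mouse bone marrow. The genes, Flt3, Kit, Csf1r, Csf3r, Csf2rb, Csf2rb2, Csf2ra, Il3ra and Epor, were taken by name from the 27998 genes of the deposited tables. All 9 passed the filter on low counts over whole libraries.

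The 12 libraries came from 4 genotypes at 3 times after 5 injections of pIpC, an interferon inducer that switches on the Mx1 promoter, into mice 8 to 12 weeks old by the sample labels (the study's methods give a younger age). WT mice lacked Cre; E2-KO mice carried Mx1-Cre with both Ezh2 alleles floxed; G12D mice carried Mx1-Cre with 1 activatable NRas G12D allele; G12D/E2-KO mice carried both. WT therefore differs from every mutant by the Cre as well, and the Mx1 promoter is active in many cell types besides blood cells. Marrow was taken at T1, T2 and T3, which lie 2 weeks, 2 months and 4 months past pIpC. It came from femurs and tibias by the sample labels (the study's methods for flow cytometry and cell separation also name vertebrae and pelvic bones). Cells were enriched on magnetic columns through c-Kit, the protein that the member Kit encodes. Each genotype had 1 library at each time, so the time points serve as the replicates of a genotype (n = 3) and the p-values below measure the spread between these libraries. The labels do not tie the libraries to single animals.

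These receptors are the entry points through which blood progenitors read growth signals. Flt3, Kit and Csf1r are receptor tyrosine kinases for FLT3 ligand, stem cell factor and M-CSF. Csf3r and Epor pair with themselves to bind G-CSF and erythropoietin, whereas Il3ra and Csf2ra are the ligand-specific alpha chains that pair with the shared beta chain Csf2rb to bind IL-3 and GM-CSF; Csf2rb2 is a mouse-specific beta chain for IL-3. RAS proteins relay signals from all of them, and Ezh2 is the catalytic subunit of a complex that places repressive methyl marks on histones.

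The libraries used held 2350 to 3767 cells and 12.6 to 23.6 M UMIs (unique molecule counts, M for 1000000), with a median of 3780.5 to 6975.5 UMIs per cell. Of the 5648 cells in the G12D T1 table, 2896 (51.3%) matched a cell of the G12D/E2-KO T1 table, and 1494 of these were equal in every gene. The other 65 pairs of libraries shared no cell by this measure. The matched cells had 20.88 CPM of Ezh2 (UMIs of a gene per 1000000 UMIs of the library or class), close to the 20.69 CPM of G12D/E2-KO T1 and below the 86.3 CPM of the rest of G12D T1, and were kept only under G12D/E2-KO. This left 32701 of 35597 cells. Ezh2, the deleted gene, was at 103 to 133 CPM in WT and 81.7 to 103 CPM in G12D, against 27.7 to 34.6 CPM in E2-KO and 20.7 to 25.3 CPM in G12D/E2-KO. At T3, Xist was at 1296 to 1357 CPM in WT, E2-KO and G12D and at 0.13 CPM in G12D/E2-KO, so sex differed between these libraries.

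Cells were sorted into classes by marker genes, none of which is a member. A class is written as "-like" after the cells whose markers it carries. HSC/MPP-like cells carry stem and multipotent progenitor markers, GMP/early GN-like and Late GN-like cells carry early and late granulocyte markers, and ProMo-like cells carry monocyte progenitor markers. MEP-like, EryP/early Ery-like and Late Ery-like cells follow the erythroid line from its bipotent progenitor. These 7 classes had at least 20 cells in all 12 libraries. No class took 3776 cells (11.55%), which stayed unassigned. They were 7.7% of cells in WT (6.15 to 9.87%), 9.29% in G12D, 10.3% in E2-KO and 17.5% in the double mutant (13 to 20.1%), and their part in the class and make-up values below was not tested. The cells whose best class led the next by less than 0.5 score units ranged from 9.5% of Late GN-like to 26.4% of MEP-like cells.

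One stretch of regulatory sequence is shown because Epor was the member called over whole libraries; nothing in these data tests what binds it. It is the 250 bases before the RefSeq start of Epor on the minus strand of GRCm38.p6, chr9:21963577-21963826, and the capitals mark its 1 GATA match.
Epor: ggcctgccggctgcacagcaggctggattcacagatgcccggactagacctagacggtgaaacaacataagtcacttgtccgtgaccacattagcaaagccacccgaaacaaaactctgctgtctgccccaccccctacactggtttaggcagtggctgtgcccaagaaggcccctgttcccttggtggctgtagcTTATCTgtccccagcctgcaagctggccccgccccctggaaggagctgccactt
The GATA search took the letters GATA with A or T before and A or G after them, on either strand, and 27.1% of 27025 promoters of this length held a match. Epor also held 2 matches to the KLF letters CCACCC, and 29.7% of promoters held CCACCC or its longer form CCACACCC. It held 1 match to the RUNX letters TGTGGT as well, present in 14.2% of promoters. Promoter entries were found for 7 of the 9 members, all but Csf1r and Csf2rb. Of these, Kit, Csf3r, Csf2rb2 and Csf2ra also held 1 to 3 KLF matches, Il3ra and Csf2rb2 a GATA match, and Kit, Csf3r, Csf2rb2 and Csf2ra held the PU.1 letters GAGGAA, present in 23.1% of promoters. Il3ra held 1 match to the C/EBP letters TTGCNNAA, where N is any base, present in 9.6% of promoters. A match is a description of the letters and not of a bound site.

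In the mm10 annotation (GENCODE M21), Flt3 lies at chr5:147330741-147400489 and Kit at chr5:75574916-75656722. Csf1r lies at chr18:61100598-61132149, Csf3r at chr4:126024550-126044440 and Epor at chr9:21958897-21963506. Csf2rb at chr15:78325752-78353847 and Csf2rb2 at chr15:78282507-78305721 are neighbours on opposite strands, with Csf2ra at chr19:61223957-61228429 and Il3ra at chr14:14346275-14356011. Csf2rb and Csf2rb2 are near-copies. They share 18.4% of the 50-base words of Csf2rb transcripts, but 0% in the last 1000 bases, where 3' libraries read. Genes on the opposite strand overlap Flt3 (Gm26597), Csf1r (Hmgxb3) and Il3ra (Gm48860).

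In WT marrow each receptor had its own pattern over 9 classes, the 7 above plus Meg-like (megakaryocyte) and B lymphoid-like cells. Levels and their order are those of WT, but the tests of neighbouring classes below take the libraries of all 4 genotypes, since 3 WT libraries are too few to pass. They are therefore not tests of WT alone. They hold 12 libraries, 10 where 1 of the added 2 classes enters and 8 where both do. Among the early receptors, Flt3 was at 95.5 ± 23.0 CPM in HSC/MPP-like cells (SD, n = 3) and at 15.9 CPM in the next class, B lymphoid-like, a gap present in 10 of 10 libraries (exact sign-flip permutation test over libraries, Benjamini-Hochberg adjusted p = 0.00937). Kit was at 142 ± 18.9 CPM in MEP-like and 133 ± 21.4 CPM in HSC/MPP-like cells. These did not differ beyond their spread (adjusted p = 0.719, exact permutation test), and both lay above EryP/early Ery-like (62.9 CPM) and GMP/early GN-like cells (61.3 CPM), which also did not differ. Kit was lowest in Late Ery-like cells at 7.11 CPM, although all cells had been enriched on the c-Kit protein.

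The myeloid receptors split between monocytic and granulocytic classes. Csf1r was at 52.7 ± 6.35 CPM in ProMo-like cells and at 11.8 ± 3.21 CPM in GMP/early GN-like cells, lower in 12 of 12 libraries (exact permutation test, adjusted p = 0.00391). Csf3r led in GMP/early GN-like cells at 36.6 CPM, above Late GN-like cells at 31.5 CPM in 11 of 12 libraries (exact permutation test, adjusted p = 0.0134), and HSC/MPP-like cells at 28.7 CPM did not differ from the latter (adjusted p = 0.719). Csf2ra did not differ between Late GN-like (34.9 CPM) and GMP/early GN-like cells (34.8 CPM), and was lower in ProMo-like cells (26.6 CPM). Il3ra led in ProMo-like cells at 35.6 ± 3.56 CPM, above GMP/early GN-like cells at 23.6 CPM in 12 of 12 libraries. The shared chain Csf2rb was at 33.5, 29.6 and 27.1 CPM in ProMo-like, Late GN-like and GMP/early GN-like cells, which did not differ as neighbours, and fell to 13.8 CPM in HSC/MPP-like cells. Csf2rb2 was low in all 9 classes, with 3.82 ± 1.78 CPM in Late GN-like cells at the top and no UMI in MEP-like cells of WT.

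Epor was highest in the erythroid classes. It was at 72.6 CPM in Late Ery-like and 72.2 CPM in EryP/early Ery-like cells, which did not differ (exact permutation test, adjusted p = 0.99). MEP-like cells were at 26.2 CPM, lower in 12 of 12 libraries. Meg-like cells at 17.9 CPM did not differ from MEP-like cells (exact permutation test, adjusted p = 0.258) and lay above HSC/MPP-like cells at 2.99 CPM in 10 of 10 libraries (adjusted p = 0.00937). In WT, 75.7% of Epor UMIs came from EryP/early Ery-like and 14.2% from Late Ery-like cells. Over all members, 28 of 72 neighbouring pairs of classes differed past an adjusted p of 0.05, and 27 to 28 did under the other pseudocounts and the stricter class margin. Of the 28, 1 pair, Csf2rb2 in GMP/early GN-like (1.3 CPM in WT) against ProMo-like cells (1.01 CPM in WT), went against the WT order, higher in 3 of 12 libraries (mean log2 difference -0.27, exact permutation test, adjusted p = 0.0339).

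**Figure D1:**
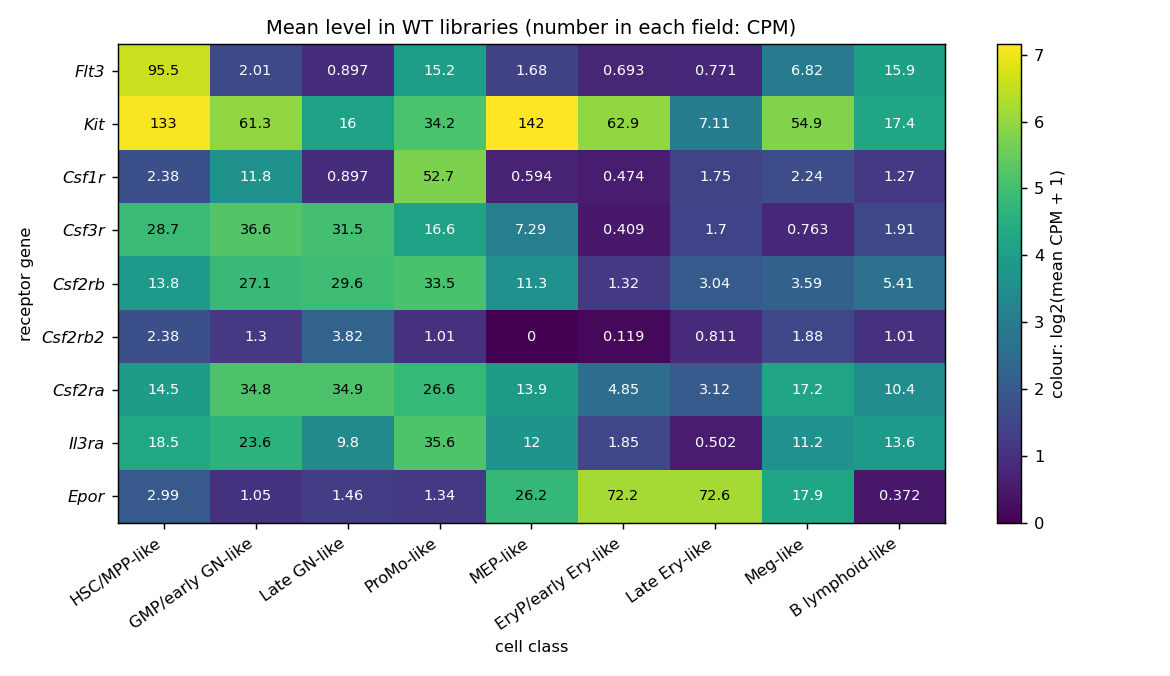
Mean WT level of each receptor gene (rows) in 9 marker-gated cell classes (columns); the number in a field is the mean CPM over the WT libraries with at least 20 cells of the class (3, and 2 for B lymphoid-like cells) and the colour is log2(mean CPM + 1). Flt3 stands out in HSC/MPP-like cells (95.5), Csf1r in ProMo-like cells (52.7), and Epor in both EryP/early Ery-like (72.2) and Late Ery-like cells (72.6).

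Genes with the most similar pattern were sought by Pearson's r of log2(CPM + 5) over 117 class-by-library units of 12 classes, which share libraries and depth, so r is a description. Epor was followed most closely by Aqp1 (r = 0.946), Smim1 (0.939) and Klf1 (0.917), of which Aqp1 and Klf1 belong to the markers that defined the erythroid class. Csf1r was followed by Ccr2 (r = 0.88), itself a ProMo marker, Stxbp6 (0.866) and Tctex1d1 (0.855). Flt3 was followed by Gpr171 (r = 0.873), Gm5111 (0.834) and Shisa8 (0.808), and Kit by Rreb1 (0.827), Use1 (0.815) and Cdk6 (0.812). For Csf2rb the closest were Rab44 (r = 0.857), Atp8b4 (0.854) and Fes (0.852); for Il3ra Plac8 (0.828), Fxyd5 (0.823) and Igfbp4 (0.821). For Csf3r they were Xpc (r = 0.848), Fgd4 (0.823) and Lbp (0.806), for Csf2ra S100a11 (0.846), Cyba (0.816) and Arhgdib (0.812), and for Csf2rb2 Cdh1 (0.724), Fam129a (0.695) and Prss34 (0.695). Prss34 is itself a marker that defined the Baso/mast (basophil and mast cell) class, which is among the 12 classes. Between members, r was 0.67 for Csf2rb with its partner Il3ra and 0.64 with its partner Csf2ra, and as high with Csf3r (0.64), which is no partner; Csf3r with Csf2ra gave 0.65, and Csf2rb with Epor -0.68.

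The first comparison asks how whole libraries of each mutant differ from WT. In whole libraries, fewer cells of a type and less RNA per cell cannot be told apart. Epor was at 31.4, 25.5 and 32.7 CPM in WT at T1, T2 and T3, and at 14.3, 12.9 and 14.2 CPM in G12D/E2-KO. Every G12D/E2-KO library lay below every WT library. An exact two-sided permutation test of 3 libraries against 3 cannot go below p = 0.1. The share of all genes that separate in this way was not counted, so a lack of overlap is a description here and below. The log2 change of Epor was -1.18 (SE 0.27, edgeR quasi-likelihood test, Benjamini-Hochberg adjusted p = 0.0355), and Epor was the 1 member of 9 called, where 5.69% of 12848 genes were called and 1.96% were called lower. The call was lost without WT T1, WT T3, E2-KO T1, E2-KO T2, G12D T1, G12D/E2-KO T2 or G12D/E2-KO T3, singly, with adjusted p from 0.0507 to 0.195 and a log2 change from -1.19 to -0.93. It was also lost without both libraries that share cells (log2 change -1.31, adjusted p = 0.0829).

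The other members in G12D/E2-KO did not pass the test. Csf2rb was at 16.8, 19.5 and 12.7 CPM in WT and at 36.4, 33.4 and 30.4 CPM in G12D/E2-KO, with no overlap between the groups (log2 change 0.99, SE 0.26, edgeR adjusted p = 0.0538). DESeq2 on the same counts put Csf2rb past the threshold with a log2 change of 1.0 (adjusted p = 0.00512), together with Flt3 and Csf1r. The share of all genes that DESeq2 called is not given for this or any other contrast, so its calls stand without a background. Flt3 was at 10.4, 8.84 and 5.53 CPM in WT against 18.3, 24.0 and 13.4 CPM (log2 change 1.16, SE 0.41, edgeR adjusted p = 0.118), again with every G12D/E2-KO library higher. Csf1r was at 6.54, 6.51 and 5.22 CPM in WT against 12.5, 12.7 and 8.62 CPM (log2 change 0.85, SE 0.27, edgeR adjusted p = 0.0836). Csf2rb passed with edgeR when WT T2, G12D T2, G12D T3 or G12D/E2-KO T3 was left out (adjusted p from 0.0142 to 0.0442), Csf1r without G12D T2 (0.0394) or G12D/E2-KO T3 (0.0203), and Flt3 without G12D T2 (0.0324). Csf3r was at 13.6 to 19.1 CPM in WT and 21.1 to 27.9 CPM in G12D/E2-KO, without overlap. Kit was higher at T2 (80.8 against 48.2 CPM) and T3 (79.0 against 58.5 CPM) but not at T1 (45.1 against 49.1 CPM). The log2 changes were 0.50 for Csf3r, 0.31 for Kit, 1.22 for Csf2rb2, 0.31 for Csf2ra and -0.06 for Il3ra. Of the 9 members 6 had an unadjusted p below 0.05, as had 26.2% of all genes.

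In G12D libraries the monocyte receptor Csf1r was at 16.1, 8.82 and 17.3 CPM, all above WT (log2 change 1.23, SE 0.27, edgeR unadjusted p = 0.00101, adjusted p = 0.189). Csf2ra was at 54.2, 25.5 and 26.2 CPM in G12D against 20.2, 18.5 and 19.5 CPM in WT, where T1 stands far above the other times (log2 change 0.80, SE 0.20, edgeR adjusted p = 0.23). Il3ra was at 22.9, 13 and 21.3 CPM against 12.2, 11.2 and 11.8 CPM (log2 change 0.73, SE 0.21, edgeR adjusted p = 0.287). For Csf1r, Csf2rb, Csf3r, Flt3, Il3ra and Epor, the G12D T2 library lay nearer to WT than G12D T1 and T3 did. No member passed with edgeR in G12D against WT, where 0.109% of genes were called. With edgeR 5 of 9 had an unadjusted p below 0.05, as had 11.8% of all genes. DESeq2 called 2, Csf1r and Csf2ra, and its share of all genes is not given. Without G12D T2, 3 members passed with edgeR, Csf1r (log2 change 1.53, adjusted p = 0.0268), Il3ra (0.98, adjusted p = 0.0369) and Epor (-1.06, adjusted p = 0.0426). The 0.109% is that of the full fit, and the share of all genes called without G12D T2 is not given. The log2 changes of the remaining members were 0.47 for Csf3r, 0.66 for Flt3, 0.54 for Csf2rb, 0.55 for Csf2rb2, -0.13 for Kit and -0.64 for Epor.

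In E2-KO no member passed against WT (1.59% of genes were called); 1 had an unadjusted p below 0.05, as had 16.1% of all genes, and DESeq2 called 0. That 1 was Csf2ra, at 17.4, 12.1 and 11.2 CPM, below every WT library (log2 change -0.59, SE 0.20, edgeR adjusted p = 0.193; without WT T1, -0.85 and 0.042). Csf1r was at 9, 7.93 and 9.42 CPM, above every WT library (log2 change 0.50, SE 0.28, edgeR adjusted p = 0.398). Csf2rb was at 21.2, 19.5 and 21.4 CPM, also without overlap, though its lowest library and the highest WT library both round to 19.5 CPM (log2 change 0.32, SE 0.26, edgeR adjusted p = 0.574). Kit was at 51.8 to 60.4 CPM against 48.2 to 58.5 CPM. Csf2rb2 was at 3.79, 1.44 and 3.40 CPM in E2-KO against 1.19, 1.82 and 1.33 CPM in WT, which overlap. The other members overlapped with WT too, with log2 changes of 0.17 for Flt3, -0.11 for Csf3r, -0.31 for Il3ra and -0.32 for Epor.

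**Figure D2:**
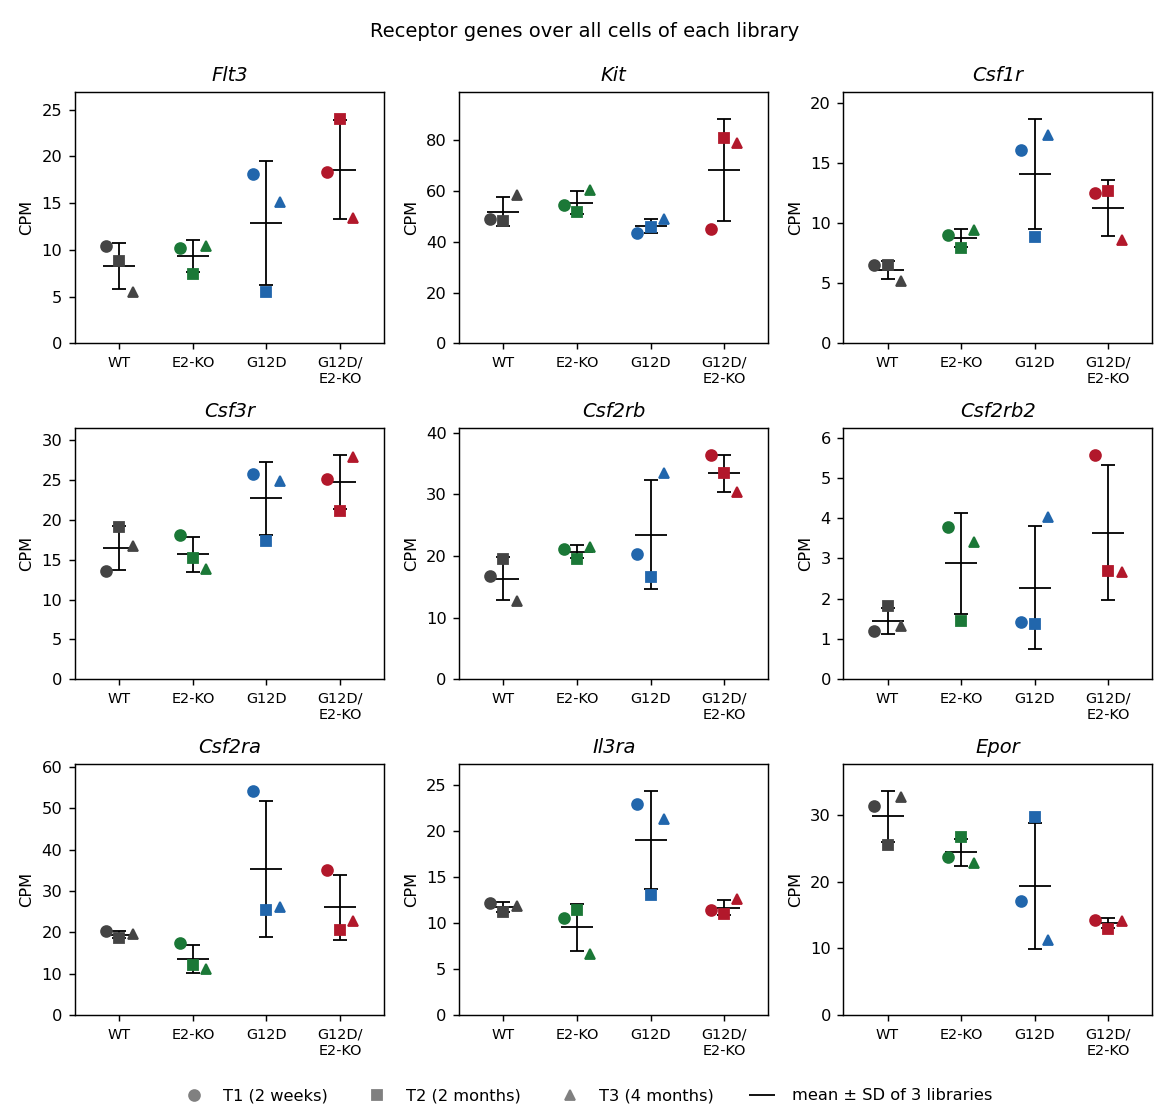
CPM of each receptor gene over all cells of a library (y axis, linear, from 0) in the 4 genotypes (x axis); a circle is T1, a square T2 and a triangle T3, and the bars give the mean ± SD of 3 libraries. Epor in G12D/E2-KO sits between 12.9 and 14.3 CPM, below all WT libraries, while Csf2rb sits between 30.4 and 36.4 CPM, above all WT libraries.

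The remaining contrasts over all cells take Ezh2 loss on the G12D background, G12D on the Ezh2-deleted background, and the departure of the double mutant from the sum of the single effects. Against G12D, the lowest p in G12D/E2-KO was that of Il3ra, at 11.4, 11 and 12.6 CPM (log2 change -0.79, SE 0.21, edgeR adjusted p = 0.109), and no member passed with 1.36% of genes called; 3 had an unadjusted p below 0.05, as had 14.8% of all genes, and DESeq2 called 1, Il3ra, which also passed with edgeR without G12D T2 (log2 change -1.05, adjusted p = 0.0287). The log2 changes of the other members were 0.44 for Kit, 0.50 for Flt3, 0.67 for Csf2rb2, 0.45 for Csf2rb, 0.03 for Csf3r, -0.38 for Csf1r, -0.49 for Csf2ra and -0.54 for Epor. Against E2-KO, it was that of Csf2ra, at 35, 20.5 and 22.7 CPM (log2 change 0.90, SE 0.20, edgeR adjusted p = 0.0886), and no member passed with 0.0934% of genes called; 5 had an unadjusted p below 0.05, as had 19.1% of all genes, and DESeq2 called 2, Csf2ra and Epor; Csf2ra also passed with edgeR without G12D/E2-KO T3 (log2 change 0.97, adjusted p = 0.042). Here the log2 changes of the others were 0.61 for Csf3r, 0.99 for Flt3, 0.67 for Csf2rb, 0.40 for Csf2rb2, 0.34 for Csf1r, 0.23 for Kit, 0.25 for Il3ra and -0.86 for Epor. The interaction gave 0 calls among members by edgeR and by DESeq2, with 1 at an unadjusted p below 0.05, Csf1r (log2 -0.88, SE 0.39), and 0.0934% of genes called and 3.59% below that p. For the other members it lay between -0.48 (Il3ra) and 0.36 (Kit), with Csf3r, Flt3, Epor, Csf2rb2, Csf2rb and Csf2ra between these. Between time points no gene was called by edgeR (0% of 12848 genes in either contrast) and no member by DESeq2, with 1 member at T2 and 2 at T3 below an unadjusted p of 0.05, as were 4.66% and 13.1% of all genes. The largest time differences were those of Csf2ra, -0.69 at T2 and -0.64 at T3 against T1 on the log2 scale.

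The class make-up of the libraries differed between genotypes, so library levels were also computed with the class shares held at the WT mean. EryP/early Ery-like cells gave 31.5 ± 5.67% of UMIs in WT and 13.2 ± 3.49% in G12D/E2-KO (SD, n = 3). At the WT make-up, Epor in G12D/E2-KO went from 0.46 to 0.82 of the WT level, and in G12D from 0.65 to 1.03, while in E2-KO it went from 0.82 to 0.78. Csf1r in G12D went from 2.31 to 1.35 times WT, beside ProMo-like cells at 9.5 ± 3.76% of cells in G12D and 4.25 ± 0.498% in WT. Flt3 in G12D/E2-KO went from 2.25 to 1.61 times WT and Csf2rb from 2.04 to 1.62 times. The pooled rest gave a mean of 35.3% of Flt3 UMIs in WT and 46.4% in G12D/E2-KO. The part of shifts inside that rest in the remaining Flt3 difference was not tested. Kit changed little, from 1.32 to 1.31 times. Il3ra in G12D/E2-KO went from 0.99 to 0.73 times WT, with 0 of 3 time points above WT. These are values without a test.

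Within classes the members were tested in 34 combinations of gene and class that passed the filter on low counts. The 9 members entered unevenly, with 8 tested in GMP/early GN-like, 7 in ProMo-like, 6 each in HSC/MPP-like and Late GN-like, 4 in EryP/early Ery-like, 2 in MEP-like and 1 in Late Ery-like cells. In G12D/E2-KO against WT 2 were higher and 1 lower by edgeR (of all gene tests, 2.62% were called, 1.66% higher and 0.968% lower). Against G12D 1 was higher and 2 lower (1.75% called, 1.17% higher and 0.578% lower), and against E2-KO 1 was higher (0.0981% called, 0.0588% higher). E2-KO against WT gave 0 calls (1.5% of gene tests; 6 member tests, and 13.6% of all gene tests, below an unadjusted p of 0.05). G12D against WT gave 0 (0.164%; 3 member tests and 5.25% of all gene tests below that p), and DESeq2 gave 0 for both. The interaction gave 0 calls by both tools (0.082% of gene tests; 3 member tests and 3.87% of all gene tests below that p).

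The alpha chain of the IL-3 receptor was lower in ProMo-like cells of the double mutant than in those of WT and of G12D, and lower in its Late GN-like cells than in those of G12D. Over whole libraries its log2 change against WT was -0.06 (SE 0.21, edgeR adjusted p = 0.88). In ProMo-like cells Il3ra was at 35.8, 31.9 and 39 CPM in WT and at 44.9, 44.8 and 34.3 CPM in G12D. With Ezh2 deleted it was at 30.8, 30.2 and 28.2 CPM (E2-KO) and at 22.2, 18.5 and 18.7 CPM (G12D/E2-KO). The G12D/E2-KO libraries lay below those of all 3 other genotypes. The difference from E2-KO did not pass (log2 change -0.66, SE 0.25, edgeR adjusted p = 0.726). The log2 change was -0.89 against WT (SE 0.23, edgeR adjusted p = 0.0298) and -1.13 against G12D (SE 0.21, edgeR adjusted p = 0.00143), where 2.65% of the class's genes were called against WT (1.23% lower) and 2.27% against G12D (1.11% lower). The difference from G12D passed in all 12 fits that each left out 1 library (log2 change -1.26 to -1.06). The difference from WT passed in 7 of 12. It was lost without WT T1, T2 or T3 and without G12D/E2-KO T2 or T3, with adjusted p up to 0.269. DESeq2, library size alone and the stricter class margin lost it as well, and it did not pass without both T1 libraries that share cells. Summed ProMo markers were at 1360 to 1560 CPM in G12D/E2-KO and 1370 to 1580 CPM in WT, with 1 of 8 lower (Ly86); 1 of 8 GMP/early GN markers (Ctsg) and 2 of 11 Late GN markers (Camp and Retnlg) were also lower. Against G12D, 2 of 8 ProMo markers were lower (Ctss and Ms4a4c). The part of these shifts in the Il3ra difference was not tested.

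In Late GN-like cells Il3ra was at 8.16, 9.88 and 11.4 CPM in WT and 14.7, 8.09 and 18.9 CPM in G12D. It was at 4.62, 5.36 and 3.33 CPM with Ezh2 deleted alone (E2-KO) and at 3.85, 4.57 and 12.2 CPM with both changes (G12D/E2-KO). All E2-KO libraries lay below all WT libraries, while G12D/E2-KO T3 overlapped WT. The values with Ezh2 deleted rest on few molecules. Whole E2-KO libraries held 202, 247 and 84 Il3ra UMIs, and a mean of 3.69% of them came from Late GN-like cells. Those of the double mutant held 255, 205 and 195, with a mean of 7.18% from this class. The mean was 17.3% in WT and 15.8% in G12D. G12D/E2-KO was lower than G12D by -1.37 on the log2 scale (SE 0.29, edgeR adjusted p = 0.00751, with 2.73% of the class's genes called and 0.92% lower). This call was lost without G12D T1 or G12D/E2-KO T1 (adjusted p up to 0.15) and when the shared cells were left in both tables (log2 change -1.07, adjusted p = 0.211). It did not pass without both T1 libraries that share cells either. In GMP/early GN-like cells Il3ra was at 29.8, 17 and 24 CPM in WT and 17.2, 15 and 14.4 CPM in G12D/E2-KO (log2 change -0.58, SE 0.20, edgeR adjusted p = 0.117), overlapping at WT T2. In HSC/MPP-like cells it was at 18.5 ± 1.41 and 10.7 ± 2.08 CPM (SD, n = 3; log2 change -0.71, SE 0.36, edgeR adjusted p = 0.434). In HSC/MPP-like cells the 3 G12D/E2-KO libraries lay below all WT and G12D libraries.

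The shared beta chain Csf2rb moved the other way. In GMP/early GN-like cells it was at 32.4, 29.7 and 19.3 CPM in WT and 23.7, 25.3 and 36.5 CPM in G12D. In E2-KO it was at 36.7, 38.9 and 49.2 CPM, and the double mutant stood at 45.8, 47.2 and 46.1 CPM. Both Ezh2-deleted genotypes lay above WT in every library. The log2 change of G12D/E2-KO against WT was 0.77 (SE 0.20, edgeR adjusted p = 0.0389, with 3.45% of the class's genes called and 1.97% higher). The call held in 7 of 12 fits that each left out 1 library and was lost without WT T2, WT T3, G12D T2, G12D/E2-KO T1 or G12D/E2-KO T2, with adjusted p up to 0.3 and log2 changes down to 0.53. It was also lost without time in the model and with the stricter class margin (adjusted p up to 0.0651), and it did not pass without both T1 libraries that share cells. In Late GN-like cells Csf2rb was at 29.1, 32.1 and 27.5 CPM in WT and 28.1, 25.9 and 40 CPM in G12D, against 54.2, 43.7 and 60.7 CPM in E2-KO. The double mutant was at 49.3, 63.9 and 37.6 CPM, again above WT throughout. Neither difference from WT passed there, with a log2 change of 0.72 for E2-KO (SE 0.22, edgeR adjusted p = 0.0953). For G12D/E2-KO it was 0.65 (SE 0.21, edgeR adjusted p = 0.0871). In ProMo-like cells Csf2rb was at 33.5 ± 7.87 CPM in WT and 54.7 ± 8.13 CPM in G12D/E2-KO (SD, n = 3; edgeR adjusted p = 0.11).

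After these values were seen, the effect of Ezh2 loss was also averaged over both backgrounds, which sets the 6 Ezh2-deleted libraries against the 6 others. Il3ra was lower by this contrast in Late GN-like cells (log2 change -1.31, SE 0.24, edgeR adjusted p = 0.000917), in ProMo-like cells (-0.68, SE 0.16, adjusted p = 0.00874) and in GMP/early GN-like cells (-0.51, SE 0.14, adjusted p = 0.0249). The Late GN-like average rests on few Il3ra molecules in the Ezh2-deleted libraries, as given above. The ProMo-like average joins unlike values, -0.23 for E2-KO against WT (SE 0.24, edgeR adjusted p = 0.78) and -1.13 for G12D/E2-KO against G12D. The interaction of Il3ra in ProMo-like cells was -0.90 (SE 0.32, edgeR unadjusted p = 0.00827, adjusted p = 0.898). Csf2rb was higher in GMP/early GN-like (0.63, SE 0.14, edgeR adjusted p = 0.00776) and Late GN-like cells (0.67, SE 0.15, edgeR adjusted p = 0.00849). In all, 3 member tests were higher and 5 lower of 34, where 6.58% of gene tests were called (3.83% higher and 2.74% lower). By class, 10.8% of genes were called in GMP/early GN-like cells (5.99% higher, 4.85% lower), 12.3% in Late GN-like cells (6.98% higher, 5.34% lower) and 4.92% in ProMo-like cells (2.31% lower). The calls for Csf2rb in both classes, and for Il3ra in Late GN-like and ProMo-like cells, held in all 12 fits that each left out 1 library. That for Il3ra in GMP/early GN-like cells held in 6 of 12, with adjusted p up to 0.0989, and was lost without WT T1 or T3, E2-KO T1 or T3, and G12D T1 or T3. Csf2rb2 was higher in GMP/early GN-like cells (1.18, SE 0.35, edgeR adjusted p = 0.0348), a call that held in 3 of 12 such fits, those without E2-KO T1, G12D T3 or G12D/E2-KO T3 (adjusted p up to 0.147 in the rest). Csf2ra was lower in Late GN-like cells (-0.45, SE 0.15, edgeR adjusted p = 0.0452), which held in 4 of 12, those without WT T1, E2-KO T2, G12D T3 or G12D/E2-KO T3 (adjusted p up to 0.258 in the rest).

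Marker values beside these calls were as follows. In Late GN-like cells the 11 Late GN markers summed to 461000 to 503000 CPM in WT, 442000 to 453000 CPM in G12D, 414000 to 445000 CPM in E2-KO and 341000 to 448000 CPM in G12D/E2-KO, so the share of UMIs left to all other genes differed. The GMP/early GN marker Prtn3 was higher in both Ezh2-deleted genotypes there, and the 8 GMP/early GN markers summed to 1310 to 1900 CPM in E2-KO against 834 to 1290 CPM in WT. In GMP/early GN-like cells these 8 markers summed to 17000 to 25100 CPM in G12D/E2-KO and 23800 to 28400 CPM in WT, with 2 lower (Nkg7 and Ctsg). Baso/mast markers, whose cells carry much Csf2rb and Il3ra, summed to 28.8 to 50.4 CPM in G12D/E2-KO and 30.1 to 38.3 CPM in WT in GMP/early GN-like cells, with 0 of the 3 tested called. The part of these markers in the Csf2rb and Il3ra differences was not tested.

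**Figure D3:**
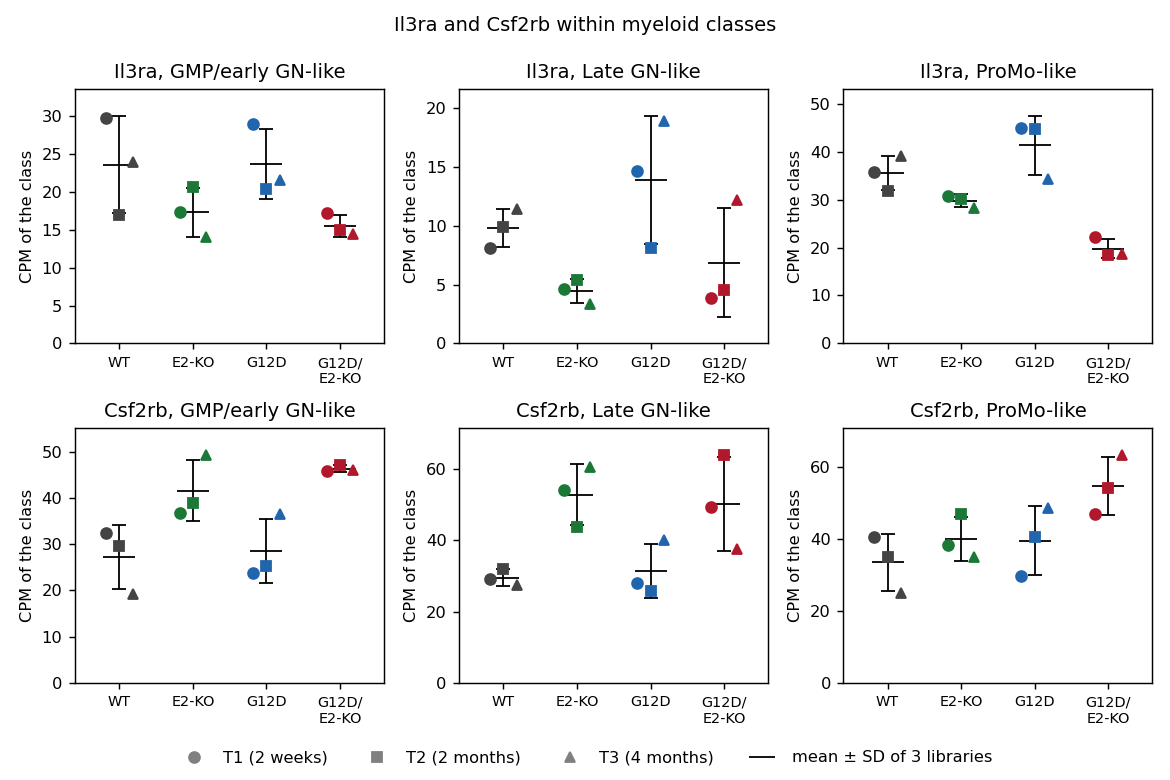
CPM of Il3ra (upper row) and Csf2rb (lower row) in GMP/early GN-like, Late GN-like and ProMo-like cells (columns), by genotype on the x axis and on a linear y axis from 0; a circle is T1, a square T2 and a triangle T3, and the bars give the mean ± SD of 3 libraries. In ProMo-like cells Il3ra of G12D/E2-KO (18.5 to 22.2 CPM) lies below every other library, and in GMP/early GN-like cells Csf2rb of E2-KO (36.7 to 49.2 CPM) and G12D/E2-KO (45.8 to 47.2 CPM) lies above every WT library.

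Kit was higher in EryP/early Ery-like cells of the double mutant, a class that pools progenitors with early erythroid cells. In EryP/early Ery-like cells it was at 55, 59.3 and 74.6 CPM in WT, 71.1, 58.4 and 61.3 CPM in G12D, and 57.8, 51.9 and 68.5 CPM in E2-KO. The double mutant was at 87.2, 92.5 and 111 CPM. The lowest G12D/E2-KO library was above the highest library of each other genotype. The log2 change was 0.69 against WT (SE 0.14, edgeR adjusted p = 0.00971; 3.43% of the class's genes called, 2.39% higher). It was 0.60 against G12D (SE 0.15, edgeR adjusted p = 0.0498; 1.33% called, 1.18% higher) and 0.75 against E2-KO (SE 0.14, edgeR adjusted p = 0.029; 0.224% called, 0.133% higher). The difference from WT was lost in 1 of 12 fits, without WT T1 (log2 change 0.60, adjusted p = 0.0845), and passed under all 6 other alternatives. The differences from G12D and from E2-KO passed in 4 and 5 of 12 such fits. The first was lost without any 1 WT library, E2-KO T1, G12D T2 or T3, or G12D/E2-KO T1 or T2 (adjusted p up to 0.312). The second was lost without WT T1 or T2, E2-KO T1 or T2, G12D T2, or G12D/E2-KO T1 or T2 (adjusted p up to 0.181). The difference from G12D was also lost without time in the model (adjusted p = 0.105), with library size alone (0.0537) and with the tables as deposited (0.268). That from E2-KO was also lost without time in the model (adjusted p = 0.13) and with the tables as deposited (0.067), and neither passed without both T1 libraries that share cells. The interaction was 0.66 on the log2 scale (SE 0.20, edgeR adjusted p = 0.835).

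Cells of this class were shallower in the double mutant, with library medians of 7650 to 12962 UMIs per cell in G12D/E2-KO and 13479 to 15393 in WT. Thinned to 2000 UMIs per cell, which left out 11 G12D/E2-KO cells and 0 WT cells, Kit was seen in 18 ± 1.85% of G12D/E2-KO and 11.3 ± 2.98% of WT cells (SD, n = 3), against 49.7% and 47.5% before thinning. In Late Ery-like cells of WT, where Kit is low, the thinned share was 1.01% at median depths of 3840 to 4604 UMIs. Among markers, 1 of 7 MEP markers (Gata2) and 1 of 10 EryP/early Ery markers (Mt2) were higher and 1 of the latter (Car2) lower in G12D/E2-KO against WT. The summed MEP markers were at 193 to 205 CPM against 189 to 222 CPM, and the summed HSC/MPP markers at 116 to 155 CPM against 122 to 134 CPM. The parts of maturation stage within the class, and of the enrichment through c-Kit, in the Kit difference were not tested. In the classes with the highest Kit, G12D/E2-KO did not differ past the threshold from WT, with log2 changes of 0.07 in HSC/MPP-like (SE 0.19) and -0.23 in MEP-like cells (SE 0.29; edgeR adjusted p = 0.932 and 0.833).

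Epor of G12D/E2-KO differed less from WT inside the erythroid classes than in whole libraries, while the log2 change of E2-KO was alike in both (-0.32 over all cells). In EryP/early Ery-like cells it was at 74.2, 71 and 71.3 CPM in WT and 74.6, 83.6 and 67.9 CPM in G12D. It was at 66.8, 59.2 and 44 CPM in E2-KO, with the double mutant at 69.4, 57 and 53.6 CPM. All libraries of both Ezh2-deleted genotypes lay below those of WT. The log2 change of G12D/E2-KO against WT was -0.21 (SE 0.14, edgeR adjusted p = 0.414) and that of E2-KO -0.34 (SE 0.13, edgeR adjusted p = 0.221). In Late Ery-like cells Epor was at 72.6 ± 4.02 CPM in WT and 56.7 ± 16.0 CPM in G12D/E2-KO (SD, n = 3; edgeR adjusted p = 0.625). With Ezh2 loss averaged over both backgrounds, Epor in EryP/early Ery-like cells was lower by -0.33 (SE 0.10, edgeR adjusted p = 0.0444; 6.32% of genes called, 2.04% lower), a call that held in 1 of 12 fits that each left out 1 library, that without E2-KO T2, and was lost in the rest (adjusted p up to 0.173).

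**Figure D4:**
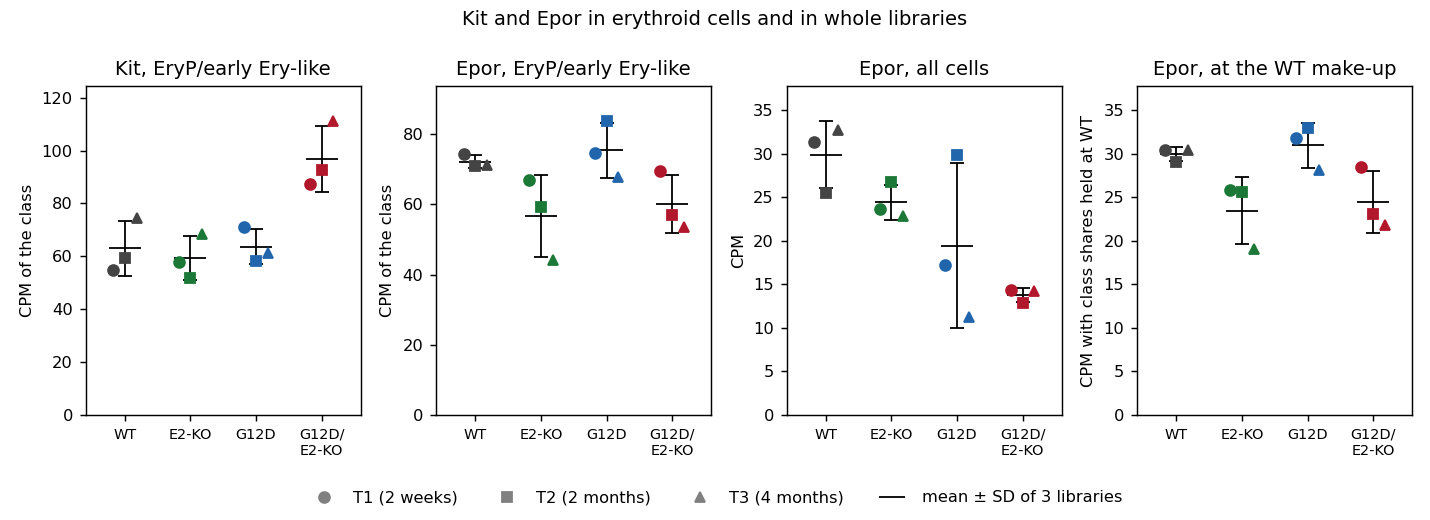
CPM of Kit and of Epor in EryP/early Ery-like cells, and of Epor over all cells as measured and with the class shares held at the WT mean (4 panels, linear y axes from 0), by genotype on the x axis; a circle is T1, a square T2 and a triangle T3, and the bars give the mean ± SD of 3 libraries. Kit of G12D/E2-KO (87.2 to 111 CPM) lies above every other library in its panel, and Epor of G12D/E2-KO lies far below WT over all cells (12.9 to 14.3 against 25.5 to 32.7 CPM) but closer to WT within the class and at the WT make-up.

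The remaining members passed no test against WT within a class. Flt3 in HSC/MPP-like cells was at 113, 104 and 69.5 CPM in WT, 138, 78.9 and 97 CPM in G12D, and 126, 103 and 144 CPM in E2-KO. The double mutant was at 136, 169 and 102 CPM and overlapped the rest (log2 change against WT 0.59, SE 0.23, edgeR adjusted p = 0.275). Csf1r in ProMo-like cells was at 52.7 ± 6.35 CPM in WT, 65.9 ± 7.26 CPM in G12D, 63.5 ± 3.72 CPM in E2-KO and 59.3 ± 13.4 CPM in the double mutant (SD, n = 3), with log2 changes against WT of 0.12 to 0.36. Csf3r in GMP/early GN-like cells was at 36.6 ± 4.43 CPM in WT and 44.4 ± 4.32 CPM in G12D, whose 3 libraries lay above those of WT (log2 change 0.33, SE 0.15, edgeR adjusted p = 0.946). Csf2ra was highest in G12D T1 in every myeloid class, at 76 CPM in GMP/early GN-like, 85.2 CPM in Late GN-like and 56.5 CPM in ProMo-like cells. Its 3 G12D libraries lay above those of WT in HSC/MPP-like, Late GN-like, MEP-like and EryP/early Ery-like cells. In GMP/early GN-like, ProMo-like and Late Ery-like cells they overlapped with WT. Csf2rb2 in Late GN-like cells was at 3.82 ± 1.78 CPM in WT and 8.33 ± 1.33 CPM in G12D/E2-KO, whose libraries did not overlap (log2 change 0.96, SE 0.38, edgeR adjusted p = 0.155).

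With G12D averaged over both backgrounds, an addition made after the data were seen, 4 members passed over all cells, where 5.18% of genes were called (2.58% higher and 2.61% lower). Csf2ra (log2 change 0.85, SE 0.14, edgeR adjusted p = 0.0275), Csf1r (0.79, SE 0.19, edgeR adjusted p = 0.0446) and Csf3r (0.54, SE 0.14, edgeR adjusted p = 0.0464) were higher and Epor lower (-0.75, SE 0.19, edgeR adjusted p = 0.048). Within classes 0 of 34 member tests passed for this contrast (0.187% of gene tests called). Of 12 fits that each left out 1 library, the Csf2ra call held without WT T2, WT T3, G12D T2, G12D/E2-KO T1 or G12D/E2-KO T3 and was lost in the other 7 (adjusted p up to 0.1). Those of Csf1r and Csf3r held without WT T2, G12D T2 or G12D/E2-KO T3 (up to 0.133 and 0.144 in the rest) and that of Epor without WT T2 or G12D T2 (up to 0.146). All 4 were lost without both libraries that share cells. Ezh2 loss averaged in the same way gave 1 call over all cells, lower Csf2ra (-0.54, SE 0.14, edgeR adjusted p = 0.0448; 6.9% of genes called, 1.99% lower), which held without WT T1 or G12D/E2-KO T1 and was lost in the other 10 fits (adjusted p up to 0.132).

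The genes around the receptors were taken from lists of ligands, other receptors, transducers, inhibitors and regulators and tested over all cells. The shares of all genes called by edgeR, against which its counts below are to be read, were 5.69% for G12D/E2-KO, 1.59% for E2-KO and 0.109% for G12D against WT. No such share is given for DESeq2, so its counts stand without a background. Of 9 ligands, 2 had enough counts to be tested, and neither was called by edgeR or by DESeq2. In G12D/E2-KO against WT, 1 of 20 tested other cytokine receptors was higher, Pdgfrb, a growth factor receptor of mesenchymal cells (log2 change 1.28, SE 0.23, edgeR adjusted p = 0.0156), with a list median of 0.31 beside 0.01 for all genes; DESeq2 called 4 there, Pdgfrb, Il1r1, Il4ra and Lifr. None of 11 JAK and STAT transducers was called by edgeR (1 below an unadjusted p of 0.05), and DESeq2 called 1, Stat3. Of 22 adaptors and kinases, 1 was higher, Gab2, a docking protein below the beta chain (0.83, SE 0.19, edgeR adjusted p = 0.0358), and DESeq2 called 4, Gab2, Lyn, Pik3cg and Plcg2. Of 18 inhibitors 1 was higher, Cbl, a ubiquitin ligase that removes activated receptor kinases (0.51, SE 0.13, edgeR adjusted p = 0.0434), and of 11 STAT5-induced genes 1 was higher, Id1 (0.87, SE 0.19, edgeR adjusted p = 0.0304), with Id1 and Pim1 called by DESeq2. Among 12 transcription factors of the receptor genes, the erythroid factors Klf1 (-1.32, SE 0.31, edgeR adjusted p = 0.044) and Gata1 (-1.06, SE 0.26, edgeR adjusted p = 0.044) were lower. Hoxa9, itself a marker that defined the HSC/MPP class, was higher (0.65, SE 0.17, edgeR adjusted p = 0.0496). DESeq2 called these 3 with Cebpa and Myb. The share of UMIs from EryP/early Ery-like cells given above was lower as well. Klf1 is itself a marker that defined the EryP/early Ery class, so its fall and that share are not separate observations. The members had a median of 0.50 in this contrast. Of 12 fits that each left out 1 library, Pdgfrb passed in 9 and was lost without WT T1, WT T3 or G12D/E2-KO T2 (adjusted p up to 0.124). Gab2, Cbl, Id1, Klf1, Gata1 and Hoxa9 passed in 4 to 7; each was lost without WT T1, WT T3, G12D T1 or G12D/E2-KO T2, and in part without WT T2, any E2-KO library, or G12D/E2-KO T1 or T3 (adjusted p up to 0.256). All 6 were also lost without both T1 libraries that share cells (adjusted p 0.0537 to 0.115). Of the other settings, Klf1 was lost without time in the model, without the filter, with the tables as deposited, with 2 genotypes and with Xist, and Gata1 with the tables as deposited and with Xist. Hoxa9 was lost with library size alone, the tables as deposited, 2 genotypes and Xist, Cbl without time, with the tables as deposited and with 2 genotypes, Gab2 without time and with 2 genotypes, and Id1 with 2 genotypes. In E2-KO against WT the 1 list gene called by edgeR was Dok2, a negative regulator of receptor signalling, which was lower (-0.95, SE 0.16, edgeR adjusted p = 0.0156), a call lost without WT T2, WT T3, E2-KO T1 or E2-KO T3 (adjusted p up to 0.0997), and DESeq2 called Dok2, Cish, Socs2 and Cebpe. In G12D against WT edgeR called none, with 0 to 6 genes of a list below an unadjusted p of 0.05, and DESeq2 called Ifngr2 and Cebpa.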

How the data were processed

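Bone marrow cells enriched for c-Kit were profiled with the 10x Genomics 3' kit. The authors counted reads with Cell Ranger against mm10, removed cells with over 10% mitochondrial reads and cells that Scrublet called as doublets, and deposited raw UMI counts per gene and cell, 1 table per library. No further doublet step was run. Cells were matched between tables by the cosine of log counts over 8000 genes (the 300 most abundant skipped; limit 0.9). Classes came from z-scored marker sums, with at least 3 markers detected and a lead of 0.1 over the next class (0.5 in the stricter setting); 110 of 115 markers were used, and the scoring limits were set after the data were seen. UMIs were summed per library, or per library and class, and tested over all genes with edgeR 4.0.16 (R 4.3.3; TMM, filterByExpr, quasi-likelihood test, genotype and time as factors, 6 residual degrees of freedom), two-sided, with Benjamini-Hochberg adjustment over all genes of a contrast and a threshold of 0.05. Neighbouring classes were compared by an exact two-sided sign-flip test of log2(CPM + 5), which with 12 libraries cannot go below p = 0.000488. CPM are per 1000000 UMIs of the library or class and are not corrected for make-up.

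Members and gene lists were chosen with earlier results of these data known. All 9 members are named in each genotype comparison over all cells, and within classes by their main classes and their calls; a list gene is named where it passed against WT (at most 5 per list), and likeness names the 3 highest r among genes reaching 20 CPM in a class. Alternatives were DESeq2 1.42.0, other scaling, no filter, no time factor, only 2 genotypes, Xist as a covariate, tables as deposited, a stricter class margin and leaving out each library; the averaged contrasts and the class fits without both T1 libraries were added after the data were seen. On simulated counts for G12D/E2-KO against WT, the test recovered 71% of genes changed by 1 log2 unit over all cells (12666 genes) and 55% in ProMo-like cells (8075 genes). For genes changed by 2 log2 units it recovered 100% and 98%, and 5 and 7 unchanged genes were called. The simulation gave every gene the same spread, wider than that fitted in ProMo-like cells, and no time effect. Smaller changes and other contrasts were not simulated, so the share of real changes missed here was not measured. Promoters are from RefSeq (GRCm38.p6).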

Additional observations from a re-analysis of the deposited data

Results flagged for a closer look

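Kit in Late GN-like cells was picked out because the difference made by Ezh2 loss had opposite signs on the 2 backgrounds at every time point. Without G12D it was lower in E2-KO than in WT by 0.50, 1.80 and 4.00 CPM at T1, T2 and T3, and with G12D it was higher in G12D/E2-KO than in G12D by 2.70, 3.70 and 2.20 CPM. The interaction was 0.57 on the log2 scale (edgeR quasi-likelihood test, unadjusted p = 0.0967, adjusted p = 1.0) and did not pass.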

How the results depend on the processing

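Of the 9 members over all cells, DESeq2 called 2 in G12D against WT (0 by edgeR), 4 in G12D/E2-KO against WT (1 by edgeR), 1 against G12D (0) and 2 against E2-KO (0). The shares of all genes called by DESeq2, and in the other settings and fits of this section, are not given. Apart from the averaged contrasts, whose shares stand above, these counts have no background. G12D/E2-KO against WT gave 2 calls with library size alone, 3 with only those 2 genotypes in the fit, 3 with Xist as a covariate and 0 without both libraries that share cells; against E2-KO, library size alone and Xist gave 1 each. Of the 34 tests within classes, no filter on low counts gave 3 calls in E2-KO (0 in the reported fit), 5 in G12D/E2-KO against WT (3) and 8 against G12D (3), and library size alone gave 1 in E2-KO (Csf2rb in Late GN-like cells). Library size alone also gave 4 against G12D, gaining Csf2rb in GMP/early GN-like and Csf2rb2 in Late GN-like cells and losing Kit in EryP/early Ery-like cells, and 3 against WT, with Csf2rb in Late GN-like cells gained and Il3ra in ProMo-like cells lost. The stricter class margin gave 1 call against WT. The tables as deposited gave 1 call against G12D and 0 against E2-KO (1). Without both T1 libraries that share cells, 1, 1 and 0 calls stood against WT, G12D and E2-KO: Kit in EryP/early Ery-like cells (log2 change 0.69, adjusted p = 0.0374) and Il3ra in ProMo-like cells against G12D (-1.16, adjusted p = 0.0195). Ezh2 loss averaged over both backgrounds gave 1 call over all cells and 8 within classes, where E2-KO against WT gave 0 and 0 and G12D/E2-KO against G12D gave 0 and 3. G12D averaged likewise gave 4 and 0, where G12D against WT gave 0 and 0 and G12D/E2-KO against E2-KO gave 0 and 1. The causes were not tested.

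The replicate numbers are the time points and stand in the reported model as a block. Without the block, G12D/E2-KO against WT gave 2 calls in place of 1 over all cells and 2 in place of 3 within classes. Against G12D it gave 2 in place of 3 and against E2-KO 0 in place of 1 within classes. Deviations of same-time libraries correlated above 0.1 in 11 of 18 pairs (r -0.29 to 0.55), and 8 of 12 libraries were closest to one of their own time. Libraries of 1 time thus shared part of their deviation, but not in every pair. At T3, r was 0.46, 0.32 and 0.39 among WT, E2-KO and G12D, which had high Xist. With G12D/E2-KO it was 0.23, -0.01 and 0.04. The highest r, 0.55, was that of G12D and G12D/E2-KO at T1. It was computed after the cells shared by their deposited tables were kept only under G12D/E2-KO. Sex moved with time only in part, since G12D/E2-KO had low Xist at T3. The parts of time, of sex and of that pair of tables in these r were not tested.

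With each library left out in turn, calls over all cells ranged from 0 to 1 in E2-KO, 0 to 3 in G12D and 0 to 4 in G12D/E2-KO against WT, and 0 to 1 in both contrasts of G12D/E2-KO against the single mutants. Within classes they ranged from 0 to 1 in E2-KO, 1 to 4 in G12D/E2-KO against WT, 1 to 5 against G12D and 0 to 1 against E2-KO. These fits turned the sign of 5 values that had not passed. Over all cells these were Csf3r in E2-KO (main -0.11, range -0.35 to 0.14), Flt3 in E2-KO (0.17, -0.08 to 0.39), Csf2rb2 in G12D (0.55, -0.12 to 1.13) and Il3ra in G12D/E2-KO (-0.06, -0.16 to 0.01), and within MEP-like cells Epor in G12D/E2-KO (-0.17, -0.52 to 0.09). Other alternatives turned none of the values followed here.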

Other observations

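The Baso/mast-like, DC-like and Macrophage-like classes fell outside the tests because few libraries held 20 of their cells. Baso/mast-like cells, led by Prss34, Mcpt8 and Cpa3, had that number in 7 libraries. Csf2rb was at 77.3 ± 35.9 CPM there (SD over 7 libraries, all of mutants), Il3ra at 66.5 ± 19.0 CPM, Csf2rb2 at 27.8 ± 16.2 CPM and Kit at 84.4 ± 25.5 CPM. WT libraries held 10, 13 and 11 such cells, so no WT value is given. In single libraries Il3ra was at 82.5 and 77.5 CPM in G12D, 62 and 62.2 CPM in E2-KO, and 88.4, 61.3 and 31.3 CPM in the double mutant.

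DC-like cells had 20 cells in 3 libraries, where Flt3 was at 135 ± 32.8 CPM (111 UMIs), and Csf2ra at 39.4 ± 21.8 CPM (45 UMIs). Their leading genes were antigen presentation genes such as Cd74 and H2-Aa. Macrophage-like cells had 20 cells in 3 libraries, led by Cxcl12, a stromal gene, and C1qb, and Epor was at 33.4 ± 11.1 CPM there on 17 UMIs. No value in these classes was tested between genotypes.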
